A study of Mus musculus with 6 samples.

Results

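Long noncoding RNA genes were examined in natural killer (NK) cells sorted from mouse spleen. They comprised the Ensembl genes whose annotated biotype was lincRNA (intergenic) or antisense and that had at least 10 counts in at least 3 of the 6 libraries. The biotype label lncRNA, which the rule also allowed, was carried by 0 genes of the count tables. The rule found 417 of the 2586 lincRNA and antisense genes listed, and the tables listed 37991 genes in all. The 3 Rroid-deficient and 3 wildtype libraries came from spleen NK cells positive for CD27 and CD11b, 2 surface proteins that mark a stage of NK maturation, and all mice had the C57BL6 background. Rroid names a noncoding transcript at a regulatory element close to Id2, and the comparison of genotypes asks what its loss does to the transcripts of these cells. The labels give neither the age of the mice nor the kind of Rroid allele. Nor do they state that each library had its own mouse, and p-values therefore cover the spread among these samples alone, which could be technical. The annotation used holds no gene called Rroid, and its level was not analysed here.

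Long noncoding RNAs are transcripts that are mostly not translated, and many stay in the nucleus, where some scaffold nuclear bodies or recruit proteins to chromatin. Others are the precursors of microRNAs or of small nucleolar RNAs, and an antisense RNA is read from the strand opposite to another gene. In lymphocytes several are known for tuning survival, cytokine production and microRNA supply.

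Each library had between 5823626 and 9216430 reads assigned to genes. Of the reads that aligned uniquely, 72.8% to 79.1% were assigned to no gene feature. This class can hold intronic reads as well as reads between genes. Where counting takes account of strand, it can also hold reads on the strand opposite to a gene. The genotype labels were checked first on Id2, an inhibitor of E protein transcription factors, which had 270, 409 and 587 counts in deficient libraries against 3121, 3148 and 2171 in wildtype libraries. Its log2 fold change was -2.62 (SE 0.30, Benjamini-Hochberg adjusted p = 0.0308 by the quasi-likelihood test of edgeR). All 11 NK cell markers examined were detected, with a summed level of 10804 to 11281 CPM (counts scaled to a common library size by TMM) in deficient and 12381 to 14895 CPM in wildtype libraries. These sums did not overlap between the genotypes. Markers of T cells summed to 212 to 263 CPM in deficient and 59.9 to 81.0 CPM in wildtype libraries. Over all 6 libraries, 4 of the 9 markers reached a mean of 2 CPM. Cd3e, Cd8a and Cd6 had no more than 3 counts in any library. Erythroid markers summed to 1.14 to 6.89 CPM in deficient and 8.02 to 17.8 CPM in wildtype libraries, also without overlap. Markers of B cells, of myeloid cells and of dendritic cells each summed to no more than 28.3 CPM in any library and overlapped between the genotypes. Deficient library 1 and wildtype library 1 stood apart, with 5.57% and 5.63% of tested genes at a count of 0 against 0.230% to 2.43% in the other libraries.

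Most of the long noncoding RNA genes lay across protein-coding genes, and the sequences show what that means for counting. The kit that amplified the RNA leaves strand unmarked, and the strand setting used in counting was not stated by the labels or notes. Of the 417 genes, 346 were antisense genes (83.0%) and 71 were lincRNA genes. The pairs of Gm11175 with Jund and of Gm15441 with Txnip are shown as 60-base stretches of coding exon, read 5′ to 3′ on each gene's own strand from the GENCODE M21 transcripts of build GRCm38, because each holds the same base pairs under 2 gene names. Capitals mark the same 10 base pairs on both strands. Gm11175 lies wholly within exonic bases of Jund, which encodes an AP-1 transcription factor subunit, and the stretch is chr8:70699538-70699597, with Gm11175 on the minus and Jund on the plus strand.
Gm11175: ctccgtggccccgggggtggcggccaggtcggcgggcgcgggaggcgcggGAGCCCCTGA
Jund: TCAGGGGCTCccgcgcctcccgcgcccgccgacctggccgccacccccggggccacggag
Gm15441 shares 36.2% of its exonic bases with Txnip, which encodes a thioredoxin-binding protein that restrains glucose uptake, and the stretch is chr3:96559678-96559737, with Gm15441 on the minus and Txnip on the plus strand.
Gm15441: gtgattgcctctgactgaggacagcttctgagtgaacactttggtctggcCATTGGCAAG
Txnip: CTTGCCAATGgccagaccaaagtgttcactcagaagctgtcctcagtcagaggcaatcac
Summed over the 6 libraries, Gm11175 had 737 reads per kb of exonic length and Jund 871. Gm15441 had 2073 reads per kb and Txnip 3966. In 2 further pairs whose noncoding gene lies almost wholly in exons of the coding gene, Gm12256 had 1789 reads per kb against 404 for Zfp39, and Gm15200 had 666 against 352 for Ostm1. The noncoding gene was thus the denser one in some pairs and the coding gene in others. With a kit that does not mark strand, reads over the bases that a gene and its antisense partner share cannot be told apart.

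The share of listed genes that reached the count minimum followed their position. Among genes sharing exonic bases with a protein-coding gene, 276 of 859 (32.1%) reached it. Among those within the span of a protein-coding gene but sharing no exonic base, 80 of 581 (13.8%) did, and among those outside all protein-coding genes 61 of 1146 (5.32%) did. By biotype, the minimum was reached by 346 of 1516 antisense genes (22.8%) and 71 of 1070 lincRNA genes (6.64%), whereas 9911 of 20214 protein-coding genes (49.0%) met the same minimum. A further 680 of the 2586 genes had reads without reaching it, and 1489 had a count of 0 in every library.

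Read density over all 6 libraries was then set beside that of the coding gene on the other strand, for listed genes whose coding partner had at least 100 reads per kb. For the 171 noncoding genes that shared no exonic base with that partner, the median ratio of noncoding to coding density was 0.115. It was 0.223 for the 80 genes sharing up to 10% of their exonic bases, 0.345 for the 195 genes sharing over 10% to 50%, and 0.828 for the 50 genes sharing over 50% to 90%. For the 18 genes sharing over 90% the median ratio was 1.29, with an interquartile range of 0.705 to 2.28. The median ratio rose at every step of overlap. The number of genes whose density was between 0.5 and 2 times that of the coding gene was 20 of 171 with no shared base, 30 of 50 at over 50% to 90%, and 8 of 18 at over 90%, where 1 gene had a count of 0. As background, HTSeq, the counting program, sets a read aside as ambiguous when it falls on 2 genes of the strands considered, and 0.153% to 0.191% of uniquely aligned reads were listed as ambiguous. The 61 genes outside protein-coding genes, which include Malat1, AW112010, Mir142hg and Neat1, are free of this overlap with coding genes in the annotation used.

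**Figure D1:**
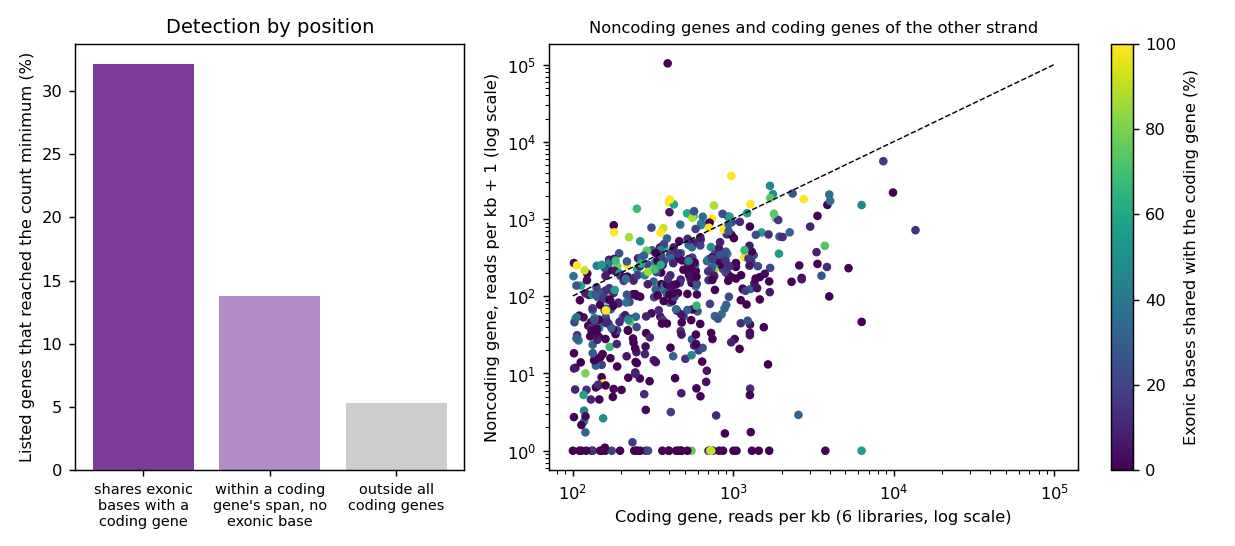
Left, share of listed long noncoding RNA genes that reached the count minimum, in percent, by position relative to protein-coding genes (32.1%, 13.8% and 5.32%). Right, reads per kb of each noncoding gene against those of the coding gene on the opposite strand, both summed over 6 libraries on log axes, coloured by the percentage of exonic bases shared; the dashed line marks equal density, and genes that share over 90% lie on both sides of it with a median ratio of 1.29.

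Levels of the 417 genes were mostly low. For the 276 genes that share exonic bases with a coding gene, a level can hold reads of that gene. The size of that part was not tested. The median of their mean levels was 5.54 CPM, and the 10th and 90th percentiles were 2.03 and 23.4 CPM, against a median of 27.2 CPM for protein-coding genes that met the same minimum. Per kb of exonic length the medians were closer, 4.89 CPM per kb for the noncoding and 6.004 CPM per kb for the coding genes, with median exonic lengths of 1182 and 4628 bases. Of the 417, 7 had a mean of at least 100 CPM, 51 lay from 20 to 100 CPM, 181 from 5 to 20 CPM and 178 under 5 CPM. All 6 libraries had reads for 313 of the genes, and 104 had a count of 0 in at least 1 library. Where a library had 0 counts, up to 3 counts remain possible from counting error alone, which equals 0.326 to 0.515 CPM depending on the library.

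Malat1, a nuclear RNA of the splicing-factor speckles on chromosome 19, was the most abundant long noncoding RNA. It had 21828, 19125 and 17421 CPM in deficient libraries and 13298, 11972 and 15726 CPM in wildtype libraries. Every deficient library lay above every wildtype library, at 19458 ± 2222 CPM in deficient and 13665 ± 1904 CPM in wildtype cells (SD, n = 3 each). The log2 fold change was 0.51 (SE 0.12), and it did not pass over all genes tested (edgeR adjusted p = 0.571). In a stretch of up to 151 bases Malat1 shares at least 95% identity with transcripts of 190 other genes, out of an exonic length of 6983 bases. Fewer cells of a type and less RNA per cell cannot be told apart in these bulk libraries. The summed T cell markers differed between the genotypes in the same direction as Malat1, and those of NK and erythroid cells in the opposite direction. Among the T cell markers, Cd3e, Cd8a and Cd6 had no more than 3 counts in any library. The part of these markers in the Malat1 difference was not tested.

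Malat1 took most of the reads of the whole class. All 417 genes together held 2.87%, 2.68% and 2.52% of assigned reads in deficient libraries and 2.06%, 1.85% and 2.52% in wildtype libraries. Deficient library 3 and wildtype library 3 were level, and the other 2 wildtype libraries lay below all deficient ones. Malat1 alone held 2.06%, 1.91% and 1.79% of assigned reads in deficient libraries, against 1.23%, 1.21% and 1.72% in wildtype libraries. Without the 3 genes with most reads, the class held 0.521%, 0.494% and 0.466% in deficient and 0.478%, 0.435% and 0.543% in wildtype libraries, and the genotypes overlapped.

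**Figure D2:**
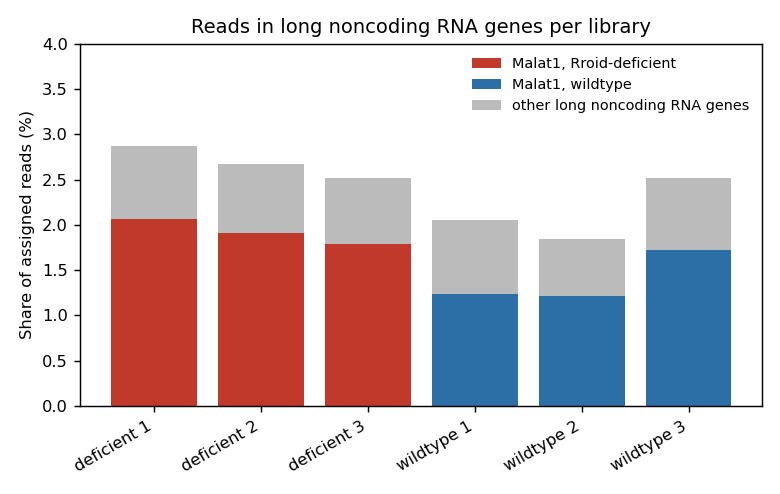
Share of assigned reads, in percent, that fell in the 417 long noncoding RNA genes, for 3 Rroid-deficient and 3 wildtype libraries; the coloured part of each bar is Malat1 and the grey part all others. Malat1 takes 1.79% to 2.06% of the reads in deficient and 1.21% to 1.72% in wildtype libraries.

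Per kb of exonic length, Gm15564 stood level with Malat1. This antisense gene lies within the span of Parp9, an interferon-linked member of the ADP-ribosyltransferase family, without sharing an exonic base. It had a mean of 2469 CPM per kb and Malat1 2372 CPM per kb over the 6 libraries, whereas Parp9 had 9.18 CPM per kb. Transcripts of 0 other genes share a stretch of Gm15564 at 95% identity or more. Sequence outside the annotated transcripts was not searched. Gm15564 had 2419, 2061 and 1968 CPM in deficient libraries, against 2736, 1316 and 1663 CPM in wildtype libraries. Wildtype library 1 was the highest and the other 2 wildtype libraries were the lowest of the 6, so the genotypes overlapped (log2 fold change 0.17, SE 0.24).

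AW112010, an RNA induced in activated immune cells, was next per length, with a mean of 858 CPM per kb. It had 638, 613 and 618 CPM in deficient libraries, against 975, 652 and 644 CPM in wildtype libraries. The deficient libraries were the lowest 3, but by a small margin except against wildtype library 1, and the log2 fold change of -0.28 (SE 0.19) did not pass (edgeR adjusted p = 0.925).

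Mir142hg, the precursor of miR-142, a microRNA abundant in blood cells, followed with a mean of 149 CPM per kb. Its hairpin gives a microRNA from each arm. Both are shown because this is the only microRNA host gene on the gene list examined that was among the 417 genes. They are given 5′ to 3′ from RefSeq on GRCm38.p6 with the seed, bases 2 to 8, in capitals, and lie on the plus strand at chr11:87756867-87756887 and chr11:87756903-87756925.
mmu-miR-142a-5p: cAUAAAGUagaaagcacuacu
mmu-miR-142a-3p: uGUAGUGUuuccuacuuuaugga
The seeds differ between the arms. Mir142hg had 35.8, 48.4 and 29.1 CPM in deficient libraries, against 67.3, 22.5 and 37.5 CPM in wildtype libraries. Wildtype libraries 1 and 2 held the highest and the lowest value, the genotypes overlapped, and the log2 fold change was -0.17 (SE 0.49). The libraries measured the host transcript and not the mature microRNAs. In all, 8 microRNA hairpins lay on the same strand inside the span of 6 of the 417 genes, among them those of Mir421 and Mir374b in Ftx, of Mir141 and Mir200c in Gm15884, of Mir135a-1 in D030055H07Rik and of Mir6516 in Snhg20.

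Of the other 8 genes among the 12 highest per length, 7 were antisense genes, and 6 of these shared exonic bases with a protein-coding gene. Gm11775 shares 15.8% of its exonic bases with Cd7, a surface receptor of T and NK cells, and had a mean of 133 CPM per kb, against 203 CPM per kb for Cd7. Gm11775 had 60.02, 132 and 131 CPM in deficient libraries and 121, 82.8 and 87.8 CPM in wildtype libraries, so that deficient libraries held both the lowest and the highest values. Gm20463 shares 100% of its exonic bases with Rnf5, a membrane-bound ubiquitin ligase, and had 57.6, 10.6 and 24.7 CPM in deficient libraries against 36.3, 29.9 and 24.4 CPM in wildtype libraries. Rnf5 itself had 74.5, 11.1 and 22.04 CPM in deficient libraries and 39.1, 31.1 and 21.9 CPM in wildtype libraries, the same order of libraries as for Gm20463 within the deficient group, with library 1 highest and library 2 lowest. Gm16069 shares 46.2% with Scamp3, a membrane protein of endosomal traffic, and Gm15886 shares 51.2% with the kinase gene Hipk1. Gm16069 averaged 32.8 ± 10.1 CPM in deficient and 36.7 ± 14.3 CPM in wildtype libraries (SD, n = 3 each), and Gm15886 averaged 77.3 ± 12.9 and 64.2 ± 31.6 CPM. Gm12000 lies within the span of Ikzf1, which encodes the lymphoid transcription factor Ikaros, and averaged 37.4 ± 9.17 CPM in deficient and 30.1 ± 14.4 CPM in wildtype libraries, against 1321 and 1332 CPM for Ikzf1. Gm20511 shares 26.3% with the formin gene Fmnl1 and averaged 13.4 ± 7.43 CPM in deficient and 29.4 ± 14.2 CPM in wildtype libraries, with overlapping libraries. None of the 6 genes described here, Gm11775, Gm20463, Gm16069, Gm15886, Gm12000 and Gm20511, passed the test (edgeR adjusted p from 0.925 for Gm20511 to 0.997 for Gm20463). Gm15441, the remaining antisense gene of the 7, is described below.

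**Figure D3:**
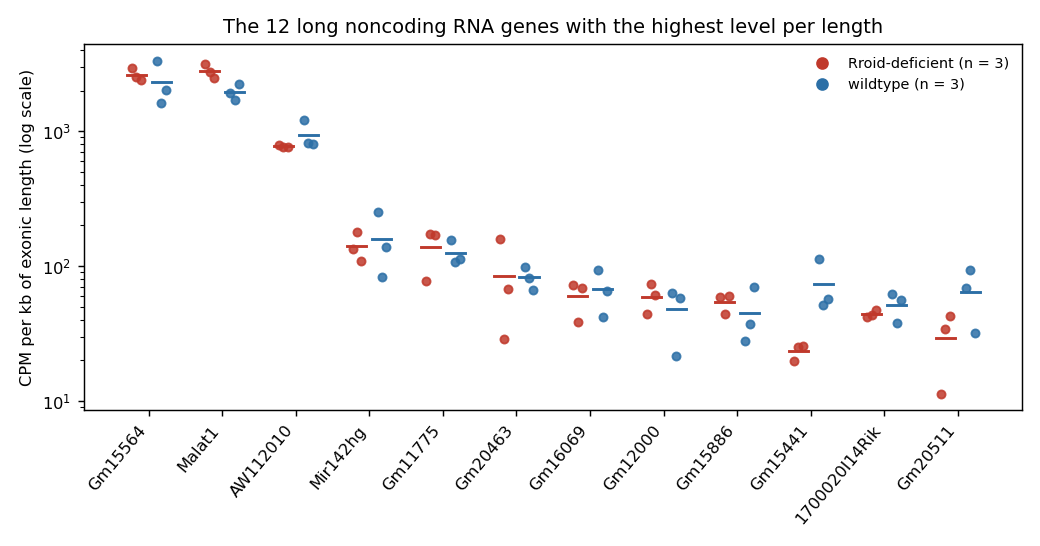
Level per kb of exonic length, in CPM per kb on a log axis, of the 12 long noncoding RNA genes with the highest mean, in 3 Rroid-deficient libraries (red) and 3 wildtype libraries (blue); points are libraries and bars are means. Among the 12, Malat1, AW112010 and Gm15441 are the genes whose genotypes do not overlap, with AW112010 apart by a small margin.

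By CPM alone, 1700020I14Rik, Tug1 and Neat1 completed the 6 highest genes. Neat1, the scaffold of nuclear paraspeckles and a neighbour of Malat1 on chromosome 19, had 225, 163 and 173 CPM in deficient libraries, against 158, 164 and 275 CPM in wildtype libraries. Its genotypes overlapped, with a log2 fold change of -0.09 (SE 0.27), whereas those of Malat1 did not; this contrast between the genes was not tested. Tug1, an RNA needed in the mouse for retinal and male germ cell development, had 433, 267 and 224 CPM in deficient libraries, against 281, 251 and 219 CPM in wildtype libraries. Deficient library 1 was the highest and the others overlapped (log2 fold change 0.30, SE 0.26). Tug1 shares 4.96% of its exonic bases with Morc2a. 1700020I14Rik had 347, 360 and 391 CPM in deficient libraries and 515, 312 and 463 CPM in wildtype libraries, the deficient values lying within the wildtype range. Brip1os, antisense to part of the Mediator gene Med13, was among the 6 antisense genes of highest CPM, at 81.7 ± 21.7 CPM in deficient and 96.01 ± 13.8 CPM in wildtype libraries; transcripts of 35 other genes share a stretch of it at 95% identity or more.

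Of the nuclear and chromatin RNAs on the gene list examined, 14 of 24 were in the count tables and 6 were among the 417 genes: Malat1, Neat1, Tug1, Airn, Ftx and Xist. Airn, the imprinted RNA that silences Igf2r on the paternal chromosome, had 61.0, 35.8 and 30.6 CPM in deficient libraries, against 9.70, 20.8 and 35.3 CPM in wildtype libraries. Wildtype library 3 lay among the deficient values, and the log2 fold change was 0.95 (SE 0.57, edgeR adjusted p = 0.925). Igf2r, in whose span Airn begins, averaged 305 ± 8.80 CPM in deficient and 268 ± 57.3 CPM in wildtype libraries.

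Xist, the RNA that coats the inactive X chromosome, had 16.9, 3.90 and 6.75 CPM in deficient libraries, against 2.09, 0 and 9.09 CPM in wildtype libraries. At a mean of 0.360 CPM per kb it had the lowest level per length of all 417 genes. The labels do not give the sex of the mice, and each of 4 Y-linked genes had between 71 and 1032 counts in every library. Ftx, an RNA of the X inactivation centre, had 17.4, 20.5 and 12.4 CPM in deficient libraries and 13.3, 11.6 and 24.4 CPM in wildtype libraries, with overlapping genotypes and a log2 fold change of 0.03 (SE 0.61). Transcripts of 177 other genes share a stretch of Ftx. H19, Hotair, Hottip and Halr1 had a count of 0 in every library, and Meg3 had reads in wildtype library 1 alone, at 4 counts.

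Of 18 small nucleolar RNA host genes on the gene list examined, 10 were in the count tables and 3 were among the 417: Snhg12, Snhg20 and Epb41l4aos. Gas5, Snhg3, Snhg15, Snhg17 and Zfas1 carry another biotype in the annotation and were outside the rule. Snhg12 had 0.287, 5.36 and 10.7 CPM in deficient libraries, against 7.46, 11.02 and 13.01 CPM in wildtype libraries, and the genotypes overlapped. Snhg20 averaged 7.02 ± 6.53 CPM in deficient and 7.01 ± 2.08 CPM in wildtype libraries (SD, n = 3 each). Epb41l4aos averaged 2.30 ± 1.90 CPM in deficient and 9.27 ± 7.34 CPM in wildtype libraries, with overlapping genotypes and an SE of 1.12 on the log2 fold change (edgeR adjusted p = 0.925). Of 10 microRNA host genes on the list, 5 were in the count tables and 1, Mir142hg, was among the 417. Mir17hg had no more than 21 counts in any library. Mir22hg, with 1 to 44 counts, met the count minimum but carries another biotype and was outside the rule.

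Of 35 immune and stress RNAs on the list, 19 were in the count tables and 4 were among the 417: AW112010, Lncpint, Gm14005 and Bach2os. Lncpint, a p53-induced RNA that works with Polycomb proteins, had 31.4, 19.8 and 4.55 CPM in deficient libraries and 25.2, 6.85 and 13.01 CPM in wildtype libraries, with overlapping genotypes. Gm14005, known as Morrbid and in mouse myeloid cells a repressor of the proapoptotic neighbour Bcl2l11, had 2.87, 1.30 and 6.61 CPM in deficient libraries, against 5.22, 8.56 and 6.90 CPM in wildtype libraries. Deficient library 3 lay above wildtype library 1, so the genotypes overlapped (log2 fold change -0.93, SE 0.99). Bcl2l11 averaged 260 ± 37.5 CPM in deficient and 203 ± 28.7 CPM in wildtype libraries, with overlapping libraries. Bach2os, antisense to the lymphoid repressor gene Bach2, was too low to be tested, at 4, 69 and 9 counts in deficient and 2, 10 and 43 counts in wildtype libraries. Flicr, an antisense RNA next to the regulatory T cell gene Foxp3, did not reach the minimum, with counts of 0, 0 and 0 in deficient and 92, 3 and 3 in wildtype libraries.

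The comparison of genotypes called none of these genes. Of the 417, 404 passed the filter on low counts and entered the fit over 11724 genes, and 13 did not. With edgeR at an adjusted p under 0.05, 0 of the 404 were called, where 0.0171% of all tested genes were called, and the smallest adjusted p among them was 0.571. At an unadjusted p under 0.05 there were 13 (3.22%), 9 higher and 4 lower, against 5.29% of all tested genes. DESeq2 on the same genes called 1 of them, Gm15441 (adjusted p = 0.00831), against 0.549% of all genes with an adjusted p. DESeq2 on all genes with a read again called Gm15441 among them, against 0.67% of all genes, and limma-voom called 0, against 0.00853%. The median log2 fold change of the 404 was 0.03 and that of all tested genes 0.02, with 207 positive and 197 negative values among the 404. In 20 of the 404 (4.95%) all deficient libraries lay above all wildtype libraries, against 6.03% of all tested genes. In 31 (7.67%) the deficient libraries were the lowest 3, against 6.33%. Both shares were near the background of all genes. Among the untested genes, Mettl5os lay above, with 10, 14 and 13 counts in deficient and 0, 0 and 2 in wildtype libraries, and Gm13999 lay below, with 6, 0 and 1 counts in deficient and 39, 11 and 19 in wildtype libraries; both were chosen after their values were seen.

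The precision of the fold changes followed the level. The median SE of the log2 fold change was 1.12 over the 404 genes and 0.65 over all tested genes. For the 7 genes at 100 CPM or above it was 0.24, for the 51 between 20 and 100 CPM 0.54, for the 181 between 5 and 20 CPM 0.98, and for the 165 tested genes below 5 CPM 1.36. Genes at low levels thus had the widest errors, and the parts of depth and of the spread between libraries in them were not tested.

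**Figure D4:**
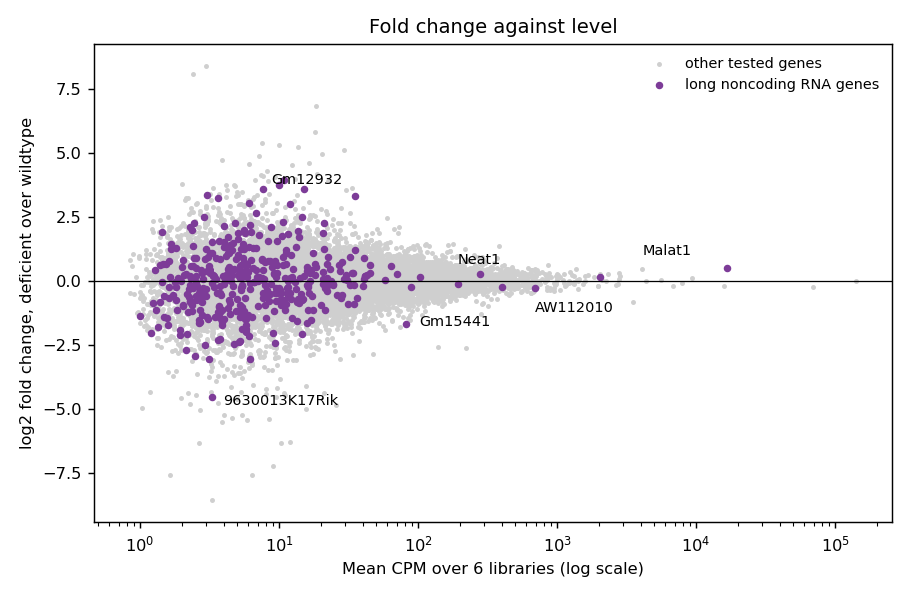
Log2 fold change, Rroid-deficient over wildtype, against mean level in CPM on a log axis, for all 11724 tested genes, with the 404 long noncoding RNA genes in purple and the others in grey. The spread widens at low levels, where the median SE of the noncoding genes under 5 CPM is 1.36; Malat1 lies at 0.51 and Gm15441 at -1.65.

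Gm15441 had the smallest p of the 404. It is antisense to Txnip and in mouse liver is known to oppose Txnip expression. It had 32.9, 42.3 and 42.7 CPM in deficient libraries, against 189, 85.8 and 95.4 CPM in wildtype libraries. The deficient libraries lay close together and below all wildtype libraries, of which library 1 was the highest. The log2 fold change was -1.65 (SE 0.37, edgeR adjusted p = 0.571). Txnip had 234, 197 and 182 CPM in deficient libraries, against 458, 317 and 345 CPM in wildtype libraries, again apart, with wildtype library 1 highest and a log2 fold change of -0.87 with an SE of 0.21 (adjusted p = 0.641 by edgeR). Both genes thus lay below the wildtype range in all deficient libraries, and reads over the 36.2% of exonic bases that Gm15441 shares with Txnip cannot be told apart. The summed NK cell and erythroid markers were also lower in all deficient libraries. Those of T cells, with Cd3e, Cd8a and Cd6 at no more than 3 counts in any library, were higher. The part of these markers in the differences of Gm15441 and Txnip was not tested.

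The 8 genes with the smallest p among those with all deficient libraries above were Malat1, Gm12932, Gm11831, A530040E14Rik, Hopxos, Rbm3os, Gm16121 and Gm16144, and none passed over all genes tested. Hopxos shares 24.8% of its exonic bases with Hopx, which encodes a small homeodomain protein, and had 9.76, 39.8 and 14.5 CPM in deficient libraries against 9.55, 6.74 and 2.98 CPM in wildtype libraries. Deficient library 1 and wildtype library 1 were nearly level, and deficient library 2 was the highest. Hopx lay apart as well, with 69.9, 57.7 and 66.5 CPM in deficient libraries and 30.6, 24.6 and 42.8 CPM in wildtype libraries (log2 fold change 0.99 with an SE of 0.38; adjusted p = 0.914 by edgeR). Gm12932, close to the histone acetyltransferase subunit gene Meaf6, had 25.1, 14.8 and 2.76 CPM in deficient libraries and 0.298, 0.535 and 2.66 CPM in wildtype libraries. Deficient library 3 and wildtype library 3 were nearly level. Meaf6 overlapped between the genotypes, at 28.1 ± 29.02 CPM in deficient and 21.2 ± 12.5 CPM in wildtype libraries.

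The other higher genes were low and uneven within a genotype. Gm16121, which shares 1.64% of its exonic bases with the spindle checkpoint gene Mad1l1, had 39.9, 27.6 and 7.44 CPM in deficient libraries, against 0, 6.95 and 5.96 CPM in wildtype libraries. Rbm3os, antisense to the cold-inducible RNA-binding gene Rbm3, had 4.45, 12.8 and 13.2 CPM in deficient libraries, against 2.69, 3.42 and 0.470 CPM in wildtype libraries. Rbm3 itself overlapped between the genotypes, at 50.4 ± 35.1 CPM in deficient and 42.5 ± 21.3 CPM in wildtype libraries. Gm16144, antisense to the annexin gene Anxa2, averaged 7.98 ± 3.33 CPM in deficient and 1.61 ± 1.16 CPM in wildtype libraries, and Gm11831, within Virma, a gene of the RNA methylation complex, averaged 6.60 ± 4.43 and 0.653 ± 0.736 CPM. A530040E14Rik had 28.1, 1.95 and 2.76 CPM in deficient libraries, against 0.746, 1.71 and 1.41 CPM in wildtype libraries. Its separation rested on small margins apart from deficient library 1, and 84 other genes share a stretch of it at 95% identity or more. Anxa2 and Virma overlapped between the genotypes, with log2 fold changes of 0.07 (SE 0.22) and -0.01 (SE 0.22).

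The 8 genes with the smallest p among those with all deficient libraries below were Gm15441, 9630013K17Rik, 4930403D09Rik, Gm17201, Gm20402, Gm16578, 1700021J08Rik and Uckl1os, and none passed either. 9630013K17Rik, which shares 4.57% of its exonic bases with the cytochrome oxidase assembly gene Cox10, had 0, 0.650 and 0.138 CPM in deficient libraries, against 14.2, 2.35 and 2.51 CPM in wildtype libraries. The deficient values were at or about the limit set by a count of 3. 4930403D09Rik shares 72.4% with Dock2, a Rac activator of lymphocyte migration, and had 0.574, 0.325 and 3.03 CPM in deficient libraries against 5.97, 15.1 and 11.9 CPM in wildtype libraries. Dock2 overlapped between the genotypes, at 1022 ± 158 CPM in deficient and 968 ± 44.5 CPM in wildtype libraries. Gm17201 shares 59.5% with the phosphatase subunit gene Ankrd52 and averaged 6.83 ± 1.77 CPM in deficient and 20.02 ± 6.67 CPM in wildtype libraries, and Ankrd52 averaged 60.01 ± 17.1 and 106 ± 47.4 CPM. Gm20402 shares 98.1% with Foxo1, a transcription factor of lymphocyte quiescence, and averaged 1.64 ± 0.627 CPM in deficient and 8.65 ± 7.76 CPM in wildtype libraries, of which library 1 was the highest at 17.6 CPM. Foxo1 overlapped between the genotypes, at 222 ± 55.1 CPM in deficient and 253 ± 60.9 CPM in wildtype libraries.

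1700021J08Rik, which shares 65.4% with the ubiquitin ligase gene Hectd3, had 1.87, 2.44 and 3.17 CPM in deficient libraries, against 11.2, 7.27 and 8.62 CPM in wildtype libraries. Uckl1os, antisense to the uridine kinase-like gene Uckl1, had 2.44, 1.46 and 3.03 CPM in deficient libraries, against 10.2, 9.41 and 6.11 CPM in wildtype libraries. Gm16578, antisense to the histamine receptor gene Hrh2, had 1.72, 0.488 and 2.89 CPM in deficient libraries, against 12.8, 5.46 and 7.99 CPM in wildtype libraries. In these 3 genes every wildtype library was above 5 CPM and every deficient library below 4 CPM. Their coding partners overlapped between the genotypes, with log2 fold changes of -0.01 (SE 0.44) for Hectd3, -0.48 (SE 0.47) for Uckl1 and -0.12 (SE 0.36) for Hrh2. Over all genes that shared at least 50% of their exonic bases with a tested partner, 37 of 61 had a fold change of the same sign as the partner. No such count was made for genes that share less, and a link with shared bases was not tested.

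**Figure D5:**
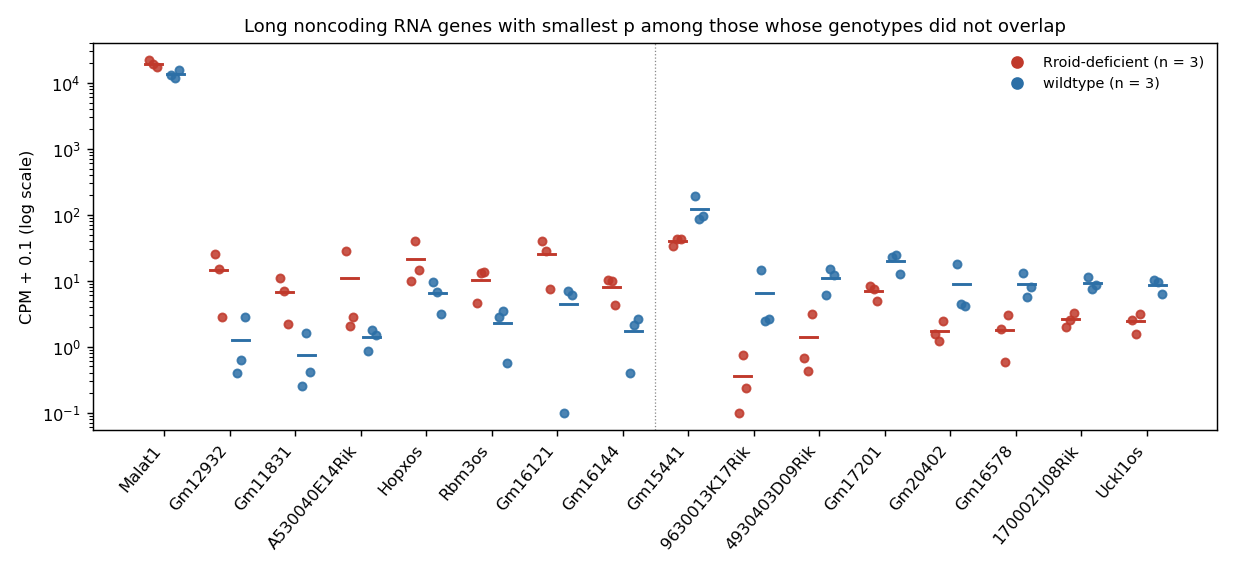
Level in CPM + 0.1 on a log axis of the 16 genes with the smallest p among those whose genotypes did not overlap, 8 higher in deficient libraries (left of the dotted line) and 8 lower (right), in 3 Rroid-deficient (red) and 3 wildtype libraries (blue), with means as bars. Apart from Malat1 and Gm15441 all of them lie at 39.9 CPM or below in every library, and none passed over all genes tested.

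No listed lincRNA or antisense gene lay within 1 Mb of Id2. Noncoding genes of another biotype, and genes without a match in the annotation, were outside this count. Chromosome 12 held 10 of the 417 genes, and the nearest of them to Id2, Atxn7l1os1, lay 8100 kb away by the annotation of GRCm38. It had 0, 8.13 and 3.17 CPM in deficient libraries, against 0, 0.535 and 6.90 CPM in wildtype libraries, and the genotypes overlapped. Chromosome 11 held the most, 59 of the 417, and the X chromosome held 11.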

How the data were processed

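The authors deposited raw counts, 1 table of whole read numbers by Ensembl gene for each library. Per the labels' protocols, the Ovation RNA-Seq System V2 amplified the RNA, and reads were single-end. Per the submitters' processing notes, DESeq2, HTSeq 0.6.1, TopHat2 2.1.0 and Trimmomatic 0.33 were used with builds mm9 and NCBIM37; their settings were not stated there. The 5 closing rows that name no gene, 80.0% to 84.4% of all reads listed, were left out.

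Biotype, symbol, exonic length, overlap and sequence came from GENCODE M21 (GRCm38), another build than that of the counts; 32919 of 37991 genes matched by identifier. Lengths and overlaps may differ from those used in counting. A partner is the overlapping, or else the nearest, protein-coding gene. Stretches shared with other genes were found with BLAST+ 2.17.0 (at least 95% identity over at least 100 bases).

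The test was edgeR 4.0.16 (R 4.3.3) on all genes, with TMM, filterByExpr, a quasi-likelihood fit on genotype and Benjamini-Hochberg adjustment over 11724 genes; CPM use TMM-scaled library sizes, and SE were derived from fold change and F statistic. The common biological coefficient of variation was 0.661. The test was also checked on simulated data with known changes. It recovered 71.8% of 4- to 16-fold changes in genes at 20 CPM or above. Recovery below 20 CPM, where most of the 417 genes lay, was not examined. Every pair of libraries differed by more than sampling noise (lowest chi-square divided by its degrees of freedom, 19.2). Alternatives used DESeq2 1.42.0 and limma 3.58.1. Figures used matplotlib 3.10.9.

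Members, gene lists and the rule for named genes were chosen with earlier results of these data known. Named were Xist, the 12 genes highest per length, the 6 highest in CPM, the 6 highest antisense genes, the 8 per direction with smallest p among those with non-overlapping genotypes, and members of the 4 lists.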

Additional observations from a re-analysis of the deposited data

How the results depend on the processing

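The number of long noncoding RNA genes called was 0 under RLE size factors, limma-voom, a stricter filter, a threshold of 0.1, each library left out, wildtype 1 and deficient 1 left out together, and Malat1 left out of library sizes, an alternative chosen after seeing the data. It was 1 with DESeq2 on the filtered genes and 1 with DESeq2 on all genes, Gm15441 each time (adjusted p = 0.00831 and 0.00958). Without a filter on low counts edgeR called 4: Gm15441 (adjusted p = 0.00486), Malat1 (0.00286), and 2 named here after their values were seen, Gm16364 (4.77e-05) and A330035P11Rik (0.0228). That run called 0.495% of 19782 genes, and the cause was not tested. Gm16364, within the span of Fyn, had 134, 45.7 and 11.4 CPM in deficient and 0, 7.38 and 11.6 CPM in wildtype libraries. A330035P11Rik had 65.05, 4.88 and 14.5 CPM in deficient and 0.149, 5.35 and 1.254 CPM in wildtype libraries. Over the alternatives the log2 fold change of Malat1 ranged from 0.39 to 0.62 (edgeR, DESeq2 or limma adjusted p 0.00286 to 0.999) and that of Gm15441 from -1.85 to -1.10 (adjusted p 0.00486 to 0.999), both weakest without wildtype 1 and deficient 1. None of the fold changes examined reversed, but nearly all belonged to genes whose genotypes did not overlap. Leaving out libraries can hardly reverse the sign of such genes, so no stability can be read from this.

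Counts of non-overlapping genes rise by construction with fewer libraries. With 1 library left out, 33 to 47 genes lay above (7.99% to 11.5%, against 9.82% to 12.1% of all tested genes) and 42 to 75 below (10.3% to 18.2%, against 9.97% to 14.4%). Without wildtype 1 and deficient 1 together, 72 lay above (17.9%, against 18.4%) and 86 below (21.3%, against 19.2%). A minimum of 10 counts in all 6 libraries kept 173 genes. The share of reads in the class was 0.548 percentage points higher in deficient libraries, and 0.0080 without the 3 genes with most reads. The median log2 fold change lay between -0.07 and 0.16, so its sign was not stable. The replicate numbers of the labels were not treated as pairs. Deviations of same-numbered libraries correlated at -0.017 to 0.040, which shows no sign of pairing but cannot exclude it. With the replicate block 0 genes were called and the median log2 fold change was -0.07. Of the genes, 178 lay under 5 CPM, where SE were widest.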
